A study of Homo sapiens with 8 samples.

Results

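Genes of major histocompatibility complex (MHC) class I antigen presentation were examined in 143BTK- cells given a synthetic mimic of the microRNA hsa-miR-101-3p and in cells given a control mimic. The set was chosen by name, with earlier results of these data known. It holds 9 genes: HLA-B, HLA-C, HLA-E, HLA-F, B2M, TAP1, TAP2, TAPBP and ERAP1. Of these, 2 were analysed, B2M and ERAP1, among 15982 genes with read counts. The other 7 (the HLA heavy chains, both TAP subunits and TAPBP) were not analysed here, so what follows covers the invariant light chain and the peptide trimming step, not the heavy chains or the peptide transporter.

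143BTK- is a human osteosarcoma cell line, and every library comes from this single line. All cultures, in both groups, grew without glucose in medium with 10 mM galactose and 5% dialysed fetal calf serum, supplemented with uridine. The miR-101 group received 80 pmol of the miR-101-3p mimic and the negative control group the same amount of the supplier's Negative Control mimic, each given at the start and again at 48 h, and RNA was taken at 120 h. There are 4 libraries per group, and the labels describe 4 separate transfection experiments. Total counts per library ran from 17603054 to 20160267.

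MHC class I molecules carry peptides from inside the cell to its surface, where T cells inspect them. The proteasome cuts proteins into peptides, the TAP transporter moves them into the endoplasmic reticulum, ERAP1 trims their amino-terminal ends to a length that fits, and tapasin (TAPBP) with calreticulin and PDIA3 loads them onto a heavy chain bound to B2M. Interferons raise many of these genes, and many tumours lower them. A microRNA acts by pairing of its seed, bases 2 to 8, with sites mostly in the 3' untranslated regions (UTRs) of mRNAs, which lowers those mRNAs or their translation.

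The microRNA and some of the sites that match it in genes described below are shown first, since they are what the treatment adds to the cell and what it can pair with. RefSeq (GRCh38.p14) places this copy of miR-101-3p on chromosome 9, 4850345 to 4850365, plus strand, and its seed is in capitals. In the site sequences, read from GENCODE 29 transcripts and written as DNA, capitals mark the match. An 8mer site pairs with bases 2 to 8 and has an A opposite base 1, and a 7mer-A1 site lacks the match to base 8.
hsa-miR-101-3p: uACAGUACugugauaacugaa
ERAP1, 7mer-A1: cttattatTACTGTAtaacatat
POMP, 8mer: tcatctttGTACTGTAatttgatg
JAK2, 8mer: agttccatGTACTGTAaatatttt
EZH2, 8mer: tttgcaaaGTACTGTAagaataat

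The ERAP1 site lies at GRCh38 chr5:96760973-96760995 on the minus strand, the POMP site at chr13:28678147-28678170 on the plus strand, the JAK2 site at chr9:5127392-5127415 on the plus strand and the EZH2 site at chr7:148807517-148807540 on the minus strand. Of 3 annotated ERAP1 transcripts with a 3' UTR, 1 holds the site, at position 2213 of a UTR of 2390 bases, near its end. None of the 4 annotated B2M transcripts with a 3' UTR, from 553 to 1285 bases long, holds a match of any of these kinds. Across 12188 tested genes with a 3' UTR, 23.9% had a site of some kind in the longest one, 4.59% an 8mer and 11.1% a 7mer-A1 as the strongest. Neither member is thus in the 8mer class. Other genes described below also hold sites, which are not shown. RBBP7, SEL1L and UGGT1 hold an 8mer, and CTSS and LNPEP a 7mer-A1. EED holds a 7mer-m8, which pairs with bases 2 to 8 but lacks the A. EZH2 holds a further 7mer-m8 and POMP a further 7mer-A1.

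ERAP1, the aminopeptidase of the endoplasmic reticulum that trims peptides for class I molecules, rose 1.95-fold with miR-101, and B2M, the light chain shared by all class I molecules, was not called. Below, "called" means an adjusted p under 0.05 in edgeR's quasi-likelihood test with Benjamini-Hochberg adjustment over all 15905 tested genes, and both members passed the filter on low counts. So 1 of the 2 analysed members was called, and it was higher. Among all tested genes 6.62% were called, 3.3% higher and 3.32% lower. With 2 members this count says nothing about the set as a whole. The shares over all tested genes are the background for each count of list genes below. Those lists, too, were chosen with earlier results of these data known.

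ERAP1 lies at GRCh38 chromosome 5, 96760810 to 96808100, on the minus strand. Its level was 71.2, 75.3, 50.0 and 44.8 CPM (reads scaled to the TMM-adjusted library size) in miR-101 libraries 1 to 4, against 36.5, 37.1, 29.2 and 21.0 CPM in negative control libraries 1 to 4. All 4 miR-101 libraries stood above all 4 control libraries, a separation in this direction seen in 7.76% of tested genes. Within each group libraries 1 and 2 were higher than libraries 3 and 4. The means were 60.3 ± 15.2 CPM in miR-101 cultures and 31.0 ± 7.54 CPM in control cultures (SD, n = 4 each). The log2 fold change was 0.96 ± 0.214 (standard error), with a 95% interval from 0.49 to 1.43 and an edgeR adjusted p of 0.0233.

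The same-numbered libraries gave similar sizes of change in ERAP1. The log2 differences, miR-101 minus control, were 0.96, 1.02, 0.77 and 1.09 in pairs 1 to 4, so ERAP1 was higher in 4 of 4 pairs. With the replicate number as a block its log2 fold change was 0.96 (edgeR adjusted p = 0.00165), in a fit that called 10.5% of all genes. The log2 fold change was 0.99 in replicates 1 and 2 alone and 0.92 in replicates 3 and 4 alone. The edgeR adjusted p was 4.36e-18 in the first of these fits and 0.334 in the second. Over all genes the first fit called 5126 and the second 6. Libraries 1 and 2 of a group differed little, with a mean chi-square per gene of 3.82 (miR-101) and 4.72 (control). For libraries 3 and 4 it was 41.2 and 70.9. The first adjusted p is thus set against the spread of close libraries and does not measure the spread over all 4 per group. When miR-101 library 1 or 2 was omitted the call was lost (edgeR adjusted p = 0.0813 and 0.079), and it was also lost when replicates 1 and 2 of each group were summed to 1 sample (0.119).

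B2M lies at chromosome 15, 44711487 to 44718877, on the plus strand, and no other gene with counts overlaps it. Its level was 185.0, 166.7, 139.1 and 147.1 CPM in miR-101 libraries 1 to 4, against 181.9, 162.9, 162.0 and 72.9 CPM in negative control libraries 1 to 4. The groups overlapped, and control library 4 stood well below the other 7 libraries. The means were 159.5 ± 20.6 CPM in miR-101 cultures and 144.9 ± 48.9 CPM in control cultures (SD, n = 4 each). The log2 fold change was 0.14 ± 0.236 with a 95% interval from -0.38 to 0.66 and an edgeR adjusted p of 0.778, so the interval leaves room for a modest change either way.

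The pairs show where the spread of B2M came from. The log2 differences, miR-101 minus control, were 0.02, 0.03, -0.22 and 1.01 in pairs 1 to 4. Without control replicate 4 the sign of the B2M change turned, to -0.08 ± 0.115, and it was again not called. The raw counts behind these values were 3447, 3336, 2841 and 2715 reads with miR-101 and 3312, 3118, 2610 and 1526 reads in the control, so counting error is small beside the spread between libraries. Control library 4 also held the lowest ERAP1 level of the 8 libraries.

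**Figure D1:**
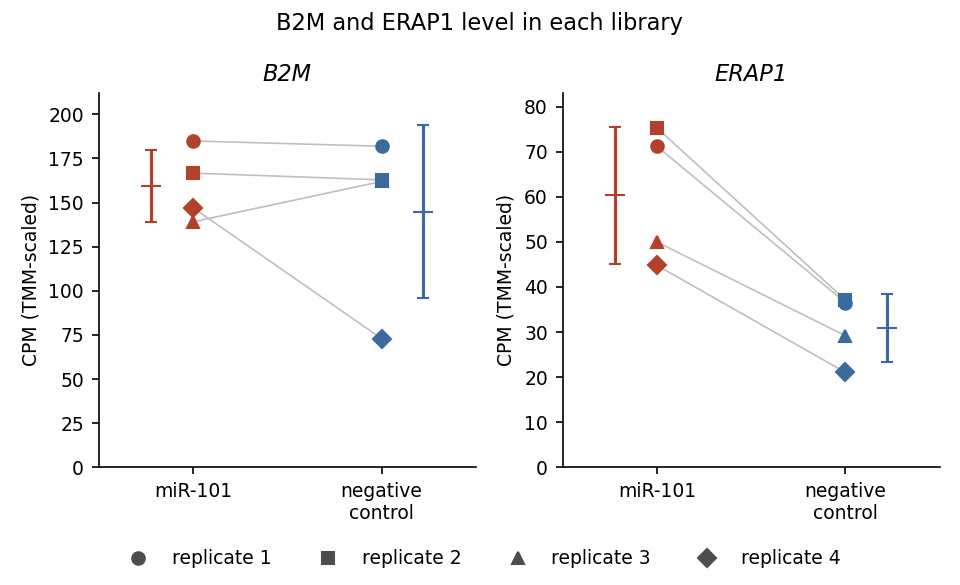
Level of B2M and ERAP1 in each library, in TMM-scaled CPM on a linear axis from 0, with miR-101 libraries left and negative control libraries right. Marker shapes are replicate numbers, grey lines join same-numbered libraries, and bars give mean and SD (n = 4). The 4 ERAP1 values with miR-101 (44.8 to 75.3 CPM) lie above all control values (21.0 to 37.1 CPM), while B2M overlaps and has 1 low control library at 72.9 CPM.

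Per kilobase of annotated exon, B2M was the more abundant of the 2 mRNAs in either group. On this scale its mean level was 67.1 CPM per kilobase with miR-101 and 60.9 in the control, and that of ERAP1 was 8.14 with miR-101 and 4.17 in the control. In the control libraries B2M ranked 988 and ERAP1 7925 of 14026 genes by this level. Within a library the ratio of ERAP1 to B2M reads does not depend on scaling. It was 0.385, 0.452, 0.359 and 0.305 in miR-101 libraries 1 to 4, against 0.201, 0.228, 0.180 and 0.288 in control libraries 1 to 4. The ratio was 1.68-fold higher with miR-101, without overlap between groups (two-sided exact permutation p = 0.0286 over 70 permutations, the smallest that free exchange of the labels allows, and 0.0381 adjusted over 4 ratios). All 4 ratios were chosen after values were seen, and the adjustment does not cover that choice. Their p-values thus describe the separation already seen in ERAP1 and add no separate support for it. Exchange within the 4 same-numbered pairs gives 16 arrangements and an exact p of 0.125 for each of the 4 ratios, the smallest it can give, so with the pairing kept no ratio can pass 0.05 and the p-values here rest on free exchange. The call was lost in each set of 7 libraries, where the smallest possible p is 0.0571.

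The other 3 ratios set ERAP1 against its neighbours on chromosome 5. ERAP2 and LNPEP encode aminopeptidases of the same family, the first working beside ERAP1 in the endoplasmic reticulum and the second in endosomes. ERAP2 had 10.6, 10.7, 9.6 and 8.0 CPM in miR-101 libraries 1 to 4, against 9.6, 8.9, 6.6 and 6.1 CPM in control libraries 1 to 4. These groups overlapped, and the log2 fold change of ERAP2 was 0.32 ± 0.179 (edgeR adjusted p = 0.322). LNPEP averaged 215.1 ± 14.6 CPM in miR-101 cultures and 184.5 ± 31.4 CPM in control cultures (SD, n = 4 each). Its log2 fold change was 0.22 ± 0.125 (edgeR adjusted p = 0.331). The ratio of ERAP1 to ERAP2 was 1.54-fold higher within libraries (two-sided exact permutation p = 0.0286, adjusted 0.0381), and the ratio of ERAP1 to LNPEP was 1.66-fold higher with overlapping groups (exact permutation p = 0.0571, adjusted 0.0571). The ratio of ERAP1 to ERAP2 was higher in 4 of 4 pairs. Without any 1 library its exact permutation p was 0.0571, the smallest that test could then give.

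CAST, the gene of the protease inhibitor calpastatin, lies on the opposite strand and shares 18786 bases with ERAP1, chr5:96760810-96779595, a stretch that includes the ERAP1 site for miR-101-3p. Whether the counting used the strand is not given in the sources used here, so reads in this stretch could belong to either gene and the ERAP1 level is uncertain to that extent. CAST had 113.5, 100.4, 104.3 and 89.8 CPM in miR-101 libraries 1 to 4, against 118.5, 104.2, 122.8 and 96.3 CPM in control libraries 1 to 4. The groups overlapped, and CAST was the lower with miR-101 in each pair, with a log2 fold change of -0.11 ± 0.114 (edgeR adjusted p = 0.599). The ratio of ERAP1 to CAST was 2.11-fold higher with miR-101 and did not overlap between groups (two-sided exact permutation p = 0.0286, adjusted 0.0381). With any 1 library omitted the exact permutation p was 0.0571, again the smallest possible. As said above, the p-values of these ratios add no separate support for the ERAP1 change.

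**Figure D2:**
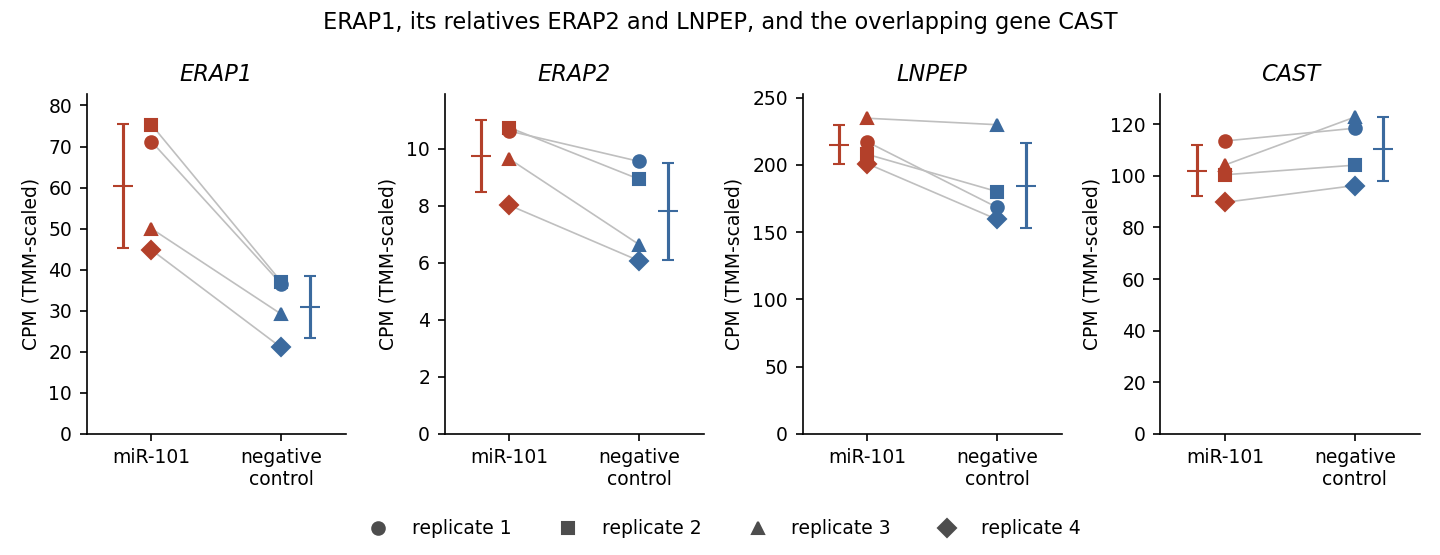
TMM-scaled CPM of ERAP1, ERAP2, LNPEP and CAST in each library, on linear axes from 0 that differ between panels. Symbols, lines and bars are as for B2M, with miR-101 left of the negative control in every panel. ERAP1 separates the groups, whereas ERAP2, LNPEP and CAST overlap.

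The promoters of both members are shown because they hold sequence matches to elements described for the response of class I genes to interferon and other signals. Each sequence runs from 250 bases before to 50 bases after a RefSeq start (GRCh38.p14), and capitals mark matches to any of 4 motifs searched on both strands. The motifs were GAAANNGAA, the core of an interferon-stimulated response element, CCAAT, bound by NF-Y, TGACG, a cAMP response half-site, and GGANNNTCC, a pattern of NF-kB sites. B2M is at chr15:44711267-44711566, plus strand, and ERAP1 at chr5:96807896-96808195, minus strand.
B2M promoter: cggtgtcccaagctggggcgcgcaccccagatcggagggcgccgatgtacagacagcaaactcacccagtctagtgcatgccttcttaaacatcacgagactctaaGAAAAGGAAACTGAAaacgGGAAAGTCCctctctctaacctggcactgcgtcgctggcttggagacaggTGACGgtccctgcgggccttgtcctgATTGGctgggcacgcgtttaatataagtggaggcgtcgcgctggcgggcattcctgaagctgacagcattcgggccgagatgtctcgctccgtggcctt
ERAP1 promoter: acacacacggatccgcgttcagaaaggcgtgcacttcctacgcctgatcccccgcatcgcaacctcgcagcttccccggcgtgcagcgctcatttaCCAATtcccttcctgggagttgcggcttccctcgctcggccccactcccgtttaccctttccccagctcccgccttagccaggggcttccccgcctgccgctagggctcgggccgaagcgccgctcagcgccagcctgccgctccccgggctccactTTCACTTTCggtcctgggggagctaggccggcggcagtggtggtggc

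Both promoters hold GAAANNGAA, which 8.11% of 35116 promoters of this length hold. In B2M it occurs as a pair of overlapping matches on the gene's strand, from -144 to -130 relative to the start, and in ERAP1 on the opposite strand, from 3 to 11 bases after the start. CCAAT is in both, at -49 to -45 in B2M on the opposite strand and at -154 to -150 in ERAP1, and 34.6% of promoters hold it. TGACG (24.6% of promoters) and GGANNNTCC (9.32%) are in B2M alone, at -75 to -71 and -125 to -117. A second RefSeq start of ERAP1, upstream, has none of the 4 motifs in its window. These matches are letters in the sequence and were not tested for use in these cells.

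Of 23 tested transcription regulators of class I genes, 1 rose and none fell, with a median log2 fold change of 0.06, against -0.005 over all tested genes. At an unadjusted p under 0.05 edgeR had 4 higher and 2 lower, and DESeq2 called 3. RFXAP, a subunit of the RFX complex that binds class I and class II promoters, rose by 0.74 ± 0.154 (edgeR adjusted p = 0.0173), at 14.9 ± 1.55 CPM in miR-101 cultures and 8.93 ± 1.64 CPM in control cultures (SD, n = 4 each). Its call was lost without miR-101 replicate 1 or control replicate 1 or 2 (edgeR adjusted p = 0.0521, 0.057 and 0.0566). NLRC5, the activator that joins this complex on class I promoters, stood at 3.21 ± 0.579 CPM in miR-101 cultures and 4.04 ± 1.39 CPM in control cultures (log2 fold change -0.34 ± 0.268, edgeR adjusted p = 0.495). IRF1, which binds interferon response elements, had a log2 fold change of 0.11 ± 0.235 (edgeR adjusted p = 0.823). IRF2, which binds the same elements, had one of 0.56 ± 0.161 (edgeR adjusted p = 0.0655). NFYA, a subunit of NF-Y, had one of -0.36 ± 0.102 (edgeR adjusted p = 0.064, and 0.0139 without control replicate 4). With the replicate number as a block, a fit in which 10.5% of all genes were called, 3 regulators were called, all higher: RFXAP, IRF2 and NFKB2, an NF-kB subunit.

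Interferon signalling acts on several of these factors. Of 10 tested interferon receptor subunits, kinases and their inhibitors, 5 rose and none fell, with a median log2 fold change of 0.37. At an unadjusted p under 0.05 edgeR had 5 higher and 1 lower, and the lowest log2 fold change was -0.22. IFNAR1, JAK1, TYK2, PTPN2 and PTPN11 were not called. JAK2, a kinase of the interferon gamma receptor, had 73.5, 76.7, 74.7 and 77.4 CPM in miR-101 libraries 1 to 4, against 35.8, 32.1, 36.4 and 27.0 CPM in control libraries 1 to 4. The groups stood far apart, and JAK2 rose 2.30-fold (edgeR adjusted p = 0.000542). Its mRNA holds the 8mer shown above. The receptor subunits IFNAR2 and IFNGR1 rose by 0.57 ± 0.119 and 0.50 ± 0.121 (edgeR adjusted p = 0.0175 and 0.0351). SOCS3 and SOCS1, inhibitors of JAK kinases, rose by 1.21 ± 0.255 and 1.72 ± 0.365 (edgeR adjusted p = 0.0191 and 0.0192). SOCS1 rests on few reads, 30, 25, 29 and 20 with miR-101 and 12, 10, 2 and 6 in the control, and overlaps RMI2. JAK2 stayed called whichever single library was omitted and, alone of the 5, with replicates 1 and 2 summed (edgeR adjusted p = 0.0129). The other 4 lost theirs when miR-101 library 1 or 2 was omitted (edgeR adjusted p from 0.0511 to 0.11), IFNAR2 also without control replicate 1 (0.0539), SOCS1 without miR-101 replicate 3 (0.0524) and IFNGR1 when miR-101 library 4 or control library 2 or 3 was omitted (0.0777, 0.063 and 0.0599).

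Class I-like genes, whose heavy chains resemble those of class I and mostly pair with B2M, were tested for 5 genes. Of these 2 rose and none fell, where 3.3% of all tested genes rose, and their median log2 fold change was 0.47. CD1D, which presents lipids to natural killer T cells, had 13.2, 12.6, 10.2 and 13.8 CPM in miR-101 libraries 1 to 4, against 6.76, 5.33, 5.28 and 6.93 CPM in control libraries 1 to 4. No control library reached the lowest miR-101 library, and the log2 fold change was 1.03 ± 0.157 (edgeR adjusted p = 0.00417). CD1D stayed called whichever single library was omitted. It was not called with replicates 1 and 2 summed (edgeR adjusted p = 0.0528) or in replicates 3 and 4 alone (0.396). HFE, which controls iron uptake through the transferrin receptor pathway, averaged 15.7 ± 3.22 CPM in miR-101 cultures and 8.18 ± 2.20 CPM in control cultures (SD, n = 4 each). It rose by 0.95 ± 0.225 (edgeR adjusted p = 0.0309), but not past the threshold without miR-101 replicates 1, 2 and 3 or control replicates 1 and 2 (edgeR adjusted p = 0.093, 0.102, 0.0789, 0.0513 and 0.0796). MR1, which presents microbial metabolites, PROCR, the endothelial protein C receptor, and FCGRT, the neonatal Fc receptor, had log2 fold changes of 0.47 ± 0.201, 0.33 ± 0.123 and 0.05 ± 0.206 (edgeR adjusted p = 0.198, 0.146 and 0.919).

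Of 13 tested chaperones, editors and translocation channel genes of the endoplasmic reticulum, 1 rose and none fell, with a median log2 fold change of 0.12. TAPBPL (TAPBPR), a relative of tapasin that exchanges peptides on class I molecules, had 2.79, 2.70, 4.31 and 3.58 CPM in miR-101 libraries 1 to 4, against 1.70, 1.78, 1.49 and 2.15 CPM in control libraries 1 to 4. All miR-101 libraries were above all control libraries, and TAPBPL rose by 0.90 ± 0.213 (edgeR adjusted p = 0.0301). Its reads per library numbered 52 to 88 with miR-101 and 24 to 45 in the control. Its locus overlaps VAMP1 on the other strand. The call was lost without miR-101 replicates 1, 3 and 4 (edgeR adjusted p = 0.0544, 0.0874 and 0.0681) and without control replicates 1, 2 and 3 (0.0821, 0.084 and 0.0549). The abundant lectin chaperones calreticulin (CALR) and calnexin (CANX) had log2 fold changes of 0.32 ± 0.163 and 0.12 ± 0.159, and PDIA3, which bridges to tapasin, one of 0.03 ± 0.115 (edgeR adjusted p = 0.28, 0.692 and 0.923). UGGT2, a glycoprotein folding sensor, had one of 0.38 ± 0.156 (edgeR adjusted p = 0.179). With the replicate block UGGT1, the main folding sensor, was also called, with a log2 fold change of -0.34 without the block (block adjusted p = 0.0389 by edgeR).

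At the peptide supply end, 2 of 6 tested immunoproteasome and activator genes fell and none rose (median log2 fold change -0.11), where 3.32% of all tested genes fell. POMP, which assembles proteasomes and is needed for immunoproteasomes, had 51.6, 47.5, 52.8 and 67.3 CPM in miR-101 libraries 1 to 4, against 146.2, 142.0, 152.8 and 125.0 CPM in control libraries 1 to 4. It fell 2.58-fold (log2 fold change -1.37 ± 0.126, edgeR adjusted p = 0.000542) and stayed called whichever single library was omitted. PSME4, the activator PA200, fell by 0.36 ± 0.093 (edgeR adjusted p = 0.045), and was no longer called when any single library but control replicate 4 was omitted (edgeR adjusted p from 0.0591, without control replicate 3, to 0.144, without miR-101 replicate 2). Its locus overlaps ACYP2. PSMB10, an interferon-induced catalytic subunit, averaged 4.26 ± 0.634 CPM in miR-101 cultures and 3.99 ± 1.03 CPM in control cultures, and the interferon-induced activator subunits PSME1 and PSME2 had log2 fold changes of 0.19 ± 0.191 and 0.12 ± 0.151 (edgeR adjusted p = 0.84, 0.594 and 0.695 for the 3 genes). None of the 3 constitutive catalytic subunits was called by edgeR, DESeq2 or limma-voom. Before adjustment, 1 was lower in edgeR at p under 0.05, PSMB6 (log2 fold change -0.21 ± 0.085), and PSMB7 had 0.24 ± 0.149.

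Of 10 other peptidases that trim or destroy such peptides, none was called by edgeR or limma-voom (3 were higher at an unadjusted p under 0.05, and DESeq2 called 1). The nearest were BLMH (log2 fold change 0.30 ± 0.095, edgeR adjusted p = 0.089) and LAP3 (0.21 ± 0.087, 0.195), both cytosolic, and the median was 0.12. ERAP1, at 0.96, lay above the highest of the 10, which was 0.32. Of 16 genes for turnover of class I proteins none was called by edgeR, DESeq2 or limma-voom (1 higher and 1 lower by edgeR at an unadjusted p under 0.05, median -0.06). SEL1L, a scaffold of protein disposal from the endoplasmic reticulum, had a log2 fold change of -0.33 ± 0.114 (edgeR adjusted p = 0.111, and 0.0183 without control replicate 4), and TRIM21 one of 0.29 ± 0.122 (0.189).

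**Figure D3:**
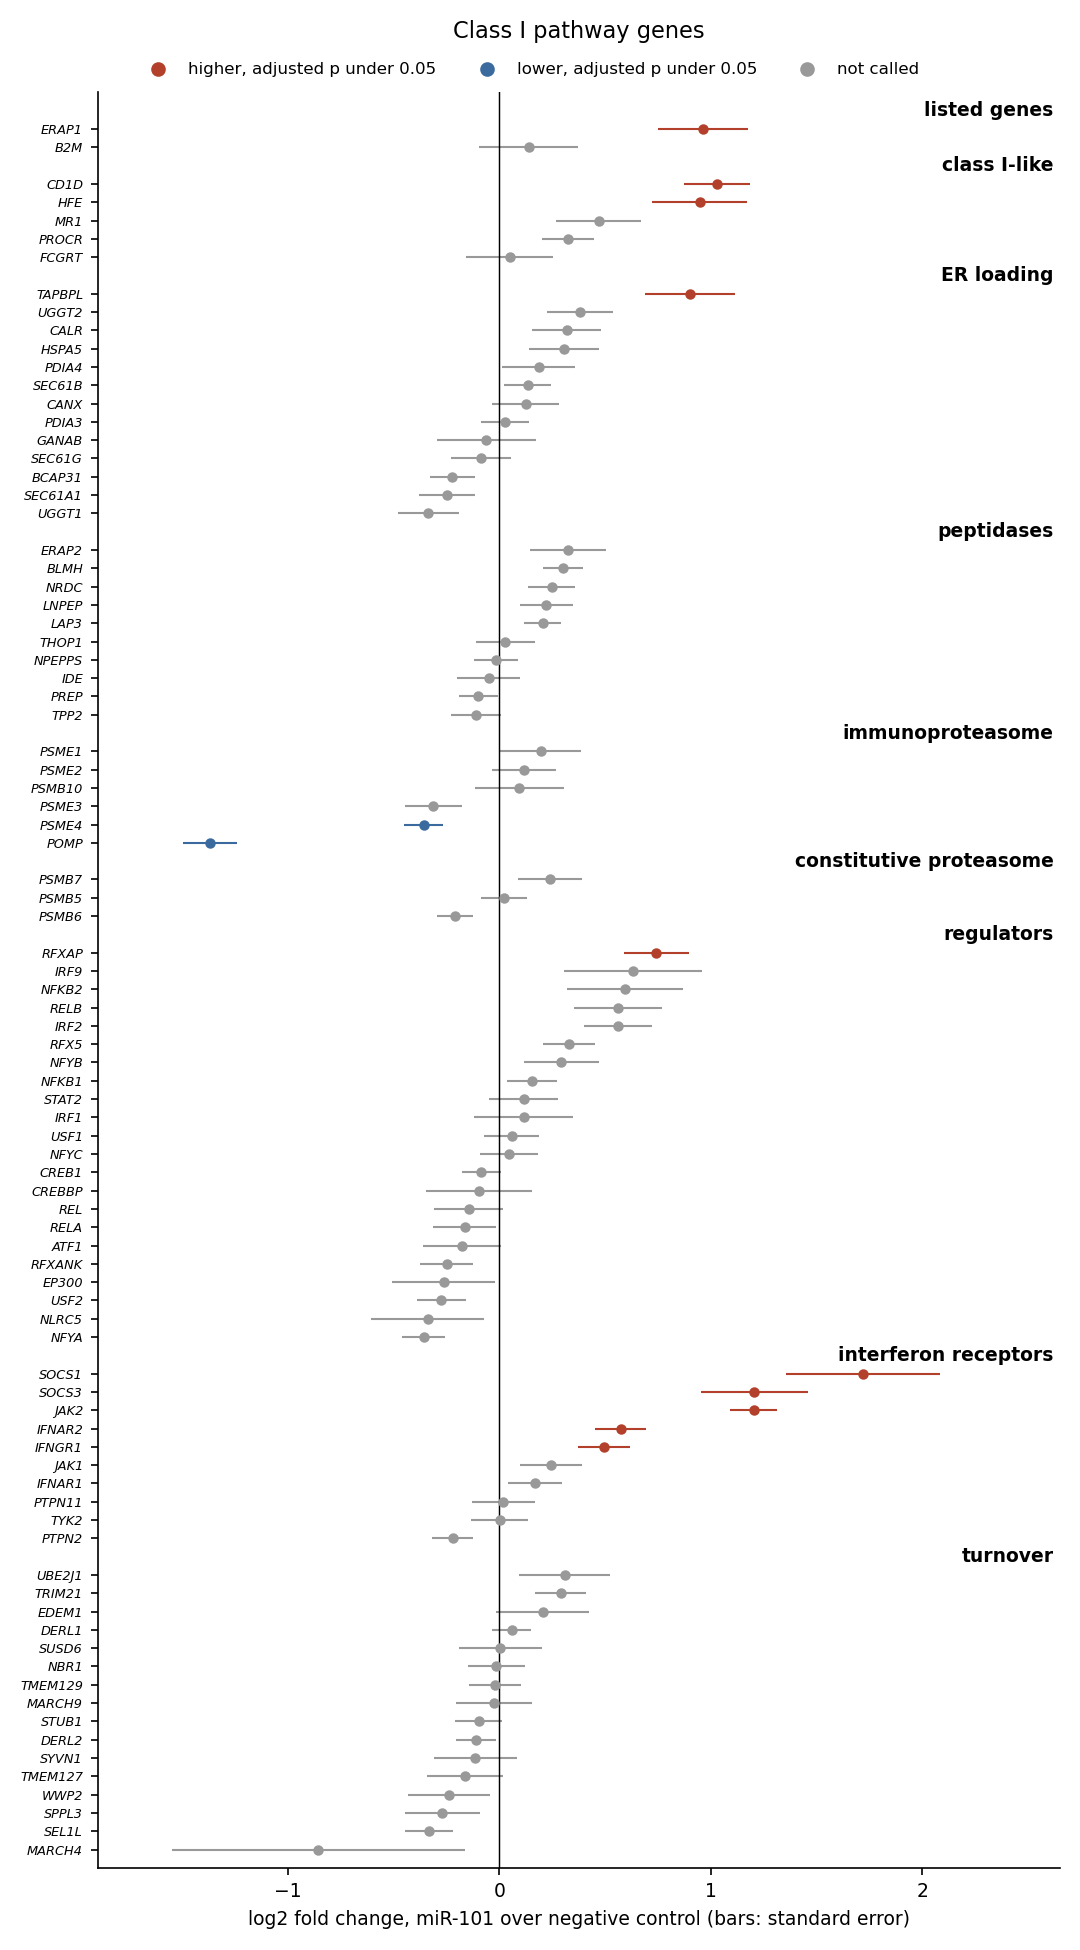
Log2 fold changes, miR-101 over negative control, of the analysed members and other class I pathway genes tested, in groups and without 1 gene that is not reported here, with standard errors as bars. Red points were called higher and blue points lower at an edgeR adjusted p under 0.05, and grey points were not called. ERAP1 (0.96) stands with CD1D, HFE and TAPBPL above the other antigen presentation genes, JAK2, SOCS1 and SOCS3 are higher still, and POMP (-1.37) is the lowest.

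Polycomb complex 2 is known to silence class I genes in some tumours, and its catalytic subunit EZH2, a described miR-101 target, served as the check of the treatment. EZH2 had 25.9, 26.7, 30.3 and 29.3 CPM in miR-101 libraries 1 to 4, against 46.0, 46.7, 51.3 and 38.9 CPM in control libraries 1 to 4. It fell 1.63-fold, without overlap (log2 fold change -0.70 ± 0.114, edgeR adjusted p = 0.00561). Of 6 core genes of the complex 3 fell and none rose (median log2 fold change -0.23), where 3.32% of all tested genes fell. Beside EZH2 these were RBBP7 and EED, which fell by 0.56 and 0.54 (edgeR adjusted p = 0.0136 and 0.0286). EZH2 stayed called whichever single library was omitted, but not with replicates 1 and 2 summed (edgeR adjusted p = 0.0809). RBBP7, whose locus overlaps TXLNG, lost its call without miR-101 replicate 1 (edgeR adjusted p = 0.057), and EED without miR-101 replicates 1 to 3 and control replicates 1 and 2 (0.0714 to 0.101). Whether these falls bear on ERAP1 was not tested.

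Ligands and cell markers were tested beside these groups. Of 11 ligands of natural killer and T cell receptors, RAET1E fell by 0.88 ± 0.222 (edgeR adjusted p = 0.0396, 0.0588 with the replicate block, and from 0.059 to 0.125 without miR-101 replicates 1, 2 and 4 or control replicates 1, 2 and 4) and none rose. Its mean was 1.76 ± 0.416 CPM in miR-101 cultures and 3.24 ± 0.591 CPM in control cultures, its locus overlaps an antisense gene, and NECTIN2 had a log2 fold change of 0.50 ± 0.216 (edgeR adjusted p = 0.204). Of class II presentation genes CTSS alone was analysed, the protease cathepsin S (log2 fold change 0.97 ± 0.391, edgeR adjusted p = 0.173, and 0.00413 with the block). Of 18 listed leukocyte markers 3 were analysed and none was called by edgeR (1 lower at an unadjusted p under 0.05, and 1 called by DESeq2 and by limma-voom), with a summed level of 4.23 to 5.95 CPM in miR-101 cultures and 5.40 to 8.83 CPM in control cultures. LYZ, lysozyme, was the nearest (log2 fold change -1.79 ± 0.478, edgeR adjusted p = 0.0501, called with the block at 0.0261 and without miR-101 replicate 3 or control replicate 4, at 0.0434 and 0.0244), and ITGAX had -0.26 ± 0.257. Of 12 osteoblast and mesenchymal markers 6 were analysed, with VIM at 476.0 to 806.0 CPM in miR-101 cultures and 526.2 to 899.5 CPM in control cultures. RUNX2, the osteoblast transcription factor, rose by 0.93 ± 0.212 (edgeR adjusted p = 0.0269, and from 0.0592 to 0.0812 without miR-101 replicates 1, 3 and 4 or control replicates 1 and 2), a locus that overlaps SUPT3H. COL1A1 had 1.10 ± 0.311 (edgeR adjusted p = 0.0619, and 0.0154 without control replicate 4), and with the block RUNX2, SPARC, COL1A1 and SPP1 were called, all higher. SPP1, osteopontin, had 33.2 to 159.2 CPM in miR-101 cultures and 3.97 to 56.1 CPM in control cultures, with a log2 fold change of 2.09 ± 0.655 without the block (edgeR adjusted p = 0.0867). The median over the 6 osteoblast and mesenchymal markers was 0.83, and their part in the ERAP1 result was not tested. TK1 mRNA, of the enzyme the line is named for lacking, was present at 14.1 ± 2.20 CPM in miR-101 cultures and 16.4 ± 2.41 CPM in control cultures (SD, n = 4 each).

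Across the 8 libraries the genes most alike to the members were found by the Pearson correlation of log2 CPM with the mean of the standardised B2M and ERAP1 profiles, over 11396 genes with a mean of at least 4 CPM. The 5 highest were CREBZF (0.991), EBF1 (0.987), ZNF117 (0.986), C11orf54 (0.985) and GUCY1A3 (0.983). None of the 5 was called by edgeR between groups (adjusted p from 0.16 for ZNF117 to 0.385 for GUCY1A3). B2M and ERAP1 themselves correlated at 0.655 over the same 8 libraries, which share the treatment groups and the difference between libraries 1 and 2 and libraries 3 and 4.

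**Figure D4:**
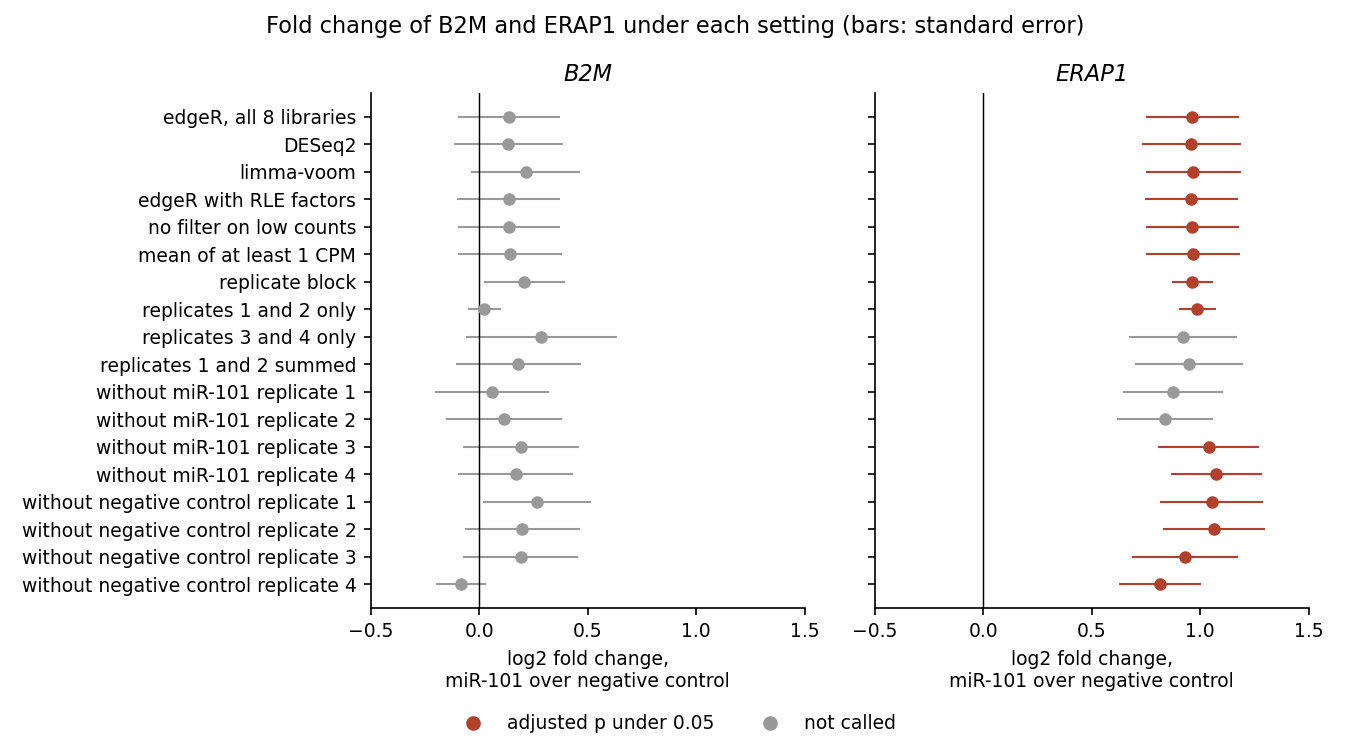
Log2 fold change of B2M and ERAP1, miR-101 over negative control, under each tool, filter, normalisation and choice of libraries, with standard errors as bars. Red points had an adjusted p under 0.05 and grey points did not. ERAP1 stays between 0.81 and 1.07, and B2M between -0.08 and 0.29, the lowest without control replicate 4.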

How the data were processed

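The authors deposited raw read counts per gene symbol for 8 RNA-seq libraries (Ribo-zero Gold, per the labels). Per the submitters' processing notes, hg38, TopHat2 2.0.14, bcl2fastq 2.18.0.12 and StringTie 1.2.4 were used. The sources used here give no counter, annotation or strand setting. Counts of 15982 genes were filtered with filterByExpr, scaled by TMM and tested with edgeR 4.0.16 (R 4.3.3, limma 3.58.1, DESeq2 1.42.0 as alternatives), with the group as the only term and adjustment over 15905 genes. The test was checked on simulated data, drawn independently for each library. Those data held no closeness of libraries 1 and 2 and no pairing, so the check does not cover either. Same-numbered libraries deviated together (correlations over genes from 0.185 to 0.425). The numbers, taken from the sample titles, were therefore used as pairs in the pair differences, the replicate block and the within-pair exchange. The main test, and the calls from it, left the pairing out. Some differently numbered libraries correlated as much (miR-101 4 with control 3 at 0.391, against 0.209 with control 4, and miR-101 1 with control 2 at 0.372, against 0.328 with control 1). Libraries 1 and 2 of each group lay closest together, but differed by more than counting noise (mean chi-square per gene 3.82 and 4.72). P-values measure the spread between cultures of 1 line. Members and lists were chosen with earlier results of these data known. Genes were named by rule: members, called list genes, the smallest p-values of lists with fewer than 2 calls, and genes alike. Others, the 4 ratios and the promoter motifs were chosen after values or sequences were seen. Sites came from GENCODE 29 and promoters from RefSeq, which matched both members.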

Additional observations from a re-analysis of the deposited data

Results flagged for a closer look

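In 8 of 66 groups of 4 libraries 1 library lay far from the others, by a limit that chance passes in about 1 in 20 groups. The groups are named genes measured in the same 8 libraries and are not independent. No excess over that rate can therefore be read from them. With miR-101, replicate 3 was low in IFNAR2 (27.2 CPM, the others 30.6 to 31.0) and IFNGR1 (54.2, the others 64.0 to 65.3) and high in PSME4 (128.8, the others 116.1 to 118.0). Replicate 4 was high in RFXAP (17.2, the others 13.9 to 14.4) and EED (31.9, the others 23.6 to 24.7). In the negative control, replicate 4 was low in UGGT2 (65.4, the others 100.4 to 107.0) and LAP3 (70.5, the others 76.1 to 77.0), and replicate 3 in RAET1E (2.36, the others 3.46 to 3.63). B2M in control replicate 4 stayed just under the limit for 4 libraries, with a gap to the next library of 0.817 of the group's range.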

How the results depend on the processing

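ERAP1 was higher under every setting run, and its call was lost in replicates 3 and 4 alone (log2 fold change 0.92) and with replicates 1 and 2 summed (0.95). In these 2 settings 0 members were called higher. Leaving out 1 library gave 0.81 to 1.07, with 0 or 1 members called higher. B2M was not called under any setting, ranged from -0.08 to 0.27 when 1 library was left out, and turned sign without negative control replicate 4 (-0.084). No member was called lower under any setting. EZH2 was not called in replicates 3 and 4 (-0.59) or with replicates 1 and 2 summed (-0.67). Over all genes 1053 were called, 1714 by DESeq2, 1676 with the replicate block, 5126 in replicates 1 and 2, 6 in replicates 3 and 4 and 173 with replicates 1 and 2 summed, and 488 to 1419 when 1 library was left out. The other lists hold class I pathway genes and also Polycomb, ligand and cell marker genes. Of all their genes 16 were called, 51 in replicates 1 and 2, 0 in replicates 3 and 4 and 2 with replicates 1 and 2 summed, and 4 to 19 when 1 library was left out. The replicate block changed the call of 4 named genes, none a member (RAET1E lost, CTSS, LYZ and COL1A1 gained), besides the list genes given in the text, and no other named gene. Of 17 called named genes, 4 stayed called whichever single library was omitted, 17 kept their sign in replicates 3 and 4, and DESeq2 called all 17. With replicates 1 and 2 summed, 2 of the 17 were called, JAK2 and POMP, and in replicates 3 and 4 alone 0 were called. The causes of these changes were not tested.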
